A study of Mus musculus with 9 samples.

Results

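Egr1, Egr2, Egr3, Nr4a1, Nr4a2, Nr4a3, Ier2, Ier3, Dusp1 and Zfp36 are genes that cells switch on early after a stimulus. They were followed here in periprostatic fat, the adipose tissue around the prostate. All 10 symbols were found among the 22180 genes of the array table, each on 1 probe set that lists no other gene, so no choice between probe sets was needed. The samples were 5 male C57BL/6J mice (C57BL/6 in the sample annotation) on a high fat diet, which supplied 60 percent of its energy as fat, and 4 on a low fat diet, which supplied 10 percent. Both diets were given from 6 weeks of age for 12 weeks, and the mice were killed with carbon dioxide at 18 weeks. All mice ate freely, and the labels name no engineered allele. Each mouse gave 1 whole-tissue RNA sample on 1 Affymetrix Mouse Gene 2.0 ST array. The values are log2 expression, so a difference of 1 is a doubling. The sources used here do not give the hour of tissue collection or the time from death to freezing.

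Immediate early genes are transcribed without new protein synthesis when growth factors, hormones, cytokines or stress activate kinase cascades, and their short-lived transcripts soon fall again. Extracellular signal-regulated kinases act through Elk factors and serum response factor at a DNA element named the CArG box, and cyclic AMP acts through CREB at the cyclic AMP response element. Egr1, Egr2 and Egr3 encode zinc finger transcription factors, and the Nr4a genes encode orphan nuclear receptors that work without a known physiological ligand. Dusp1, a phosphatase that switches off mitogen-activated kinases, and Zfp36, which encodes tristetraprolin and speeds the decay of cytokine transcripts, are feedback brakes. In fat, Egr2 is known as an early factor of adipocyte differentiation, and it is also expressed in macrophages.

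The adipocyte markers Adipoq and Plin1 were among the brighter genes of every array, at 10.99 to 11.54 and at 12.26 to 12.95. Prostate and seminal vesicle markers averaged 5.57 to 5.71 over 11 genes, below the array medians of 6.91 to 6.98. Within that list the keratin gene Krt8 lay above the medians, at 7.38 to 8.23, and Krt18 averaged 7.19 in high fat and 7.08 in low fat mice. Macrophage markers rose in high fat diet in 14 of 14 genes, with a list mean of 10.85 to 11.40 in the high fat mice and 9.50 to 10.00 in the low fat mice. Several arrays stood apart. Smooth muscle markers averaged 10.48 in low fat mouse 2, whereas low fat mice 1, 3 and 4 had means of 8.53 to 8.60, and skeletal muscle markers averaged 8.52 in high fat mouse 1, 7.33 in low fat mouse 4 and 6.37 to 6.54 in the remaining mice. High fat mice 1 and 2 had an SD of 1.87 over all rows of the table, against 1.83 to 1.84 in the other 7 arrays. In whole tissue, a change in the share of a cell type cannot be told apart from a change of RNA per cell.

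Of the 10 genes, Egr2 alone passed the test between diets, and it was higher in high fat diet. No member passed it in the lower direction. By limma with Benjamini-Hochberg adjustment over all genes, at an adjusted p of 0.05, 4768 of 22180 genes were called (21.5%), 2742 of them higher (12.4%) and 2026 lower (9.13%). The members' share of 1 in 10 therefore lay below the share over all genes. Their median log2 difference was 0.13, against -0.001 over all genes, and 8 of the 10 differences were above 0, against 49.6% of all genes. The split of all calls moved with scaling, to 2320 higher and 2771 lower after quantile normalization was repeated. Centring each array on its median gave 2227 higher and 3056 lower.

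**Figure D1:**
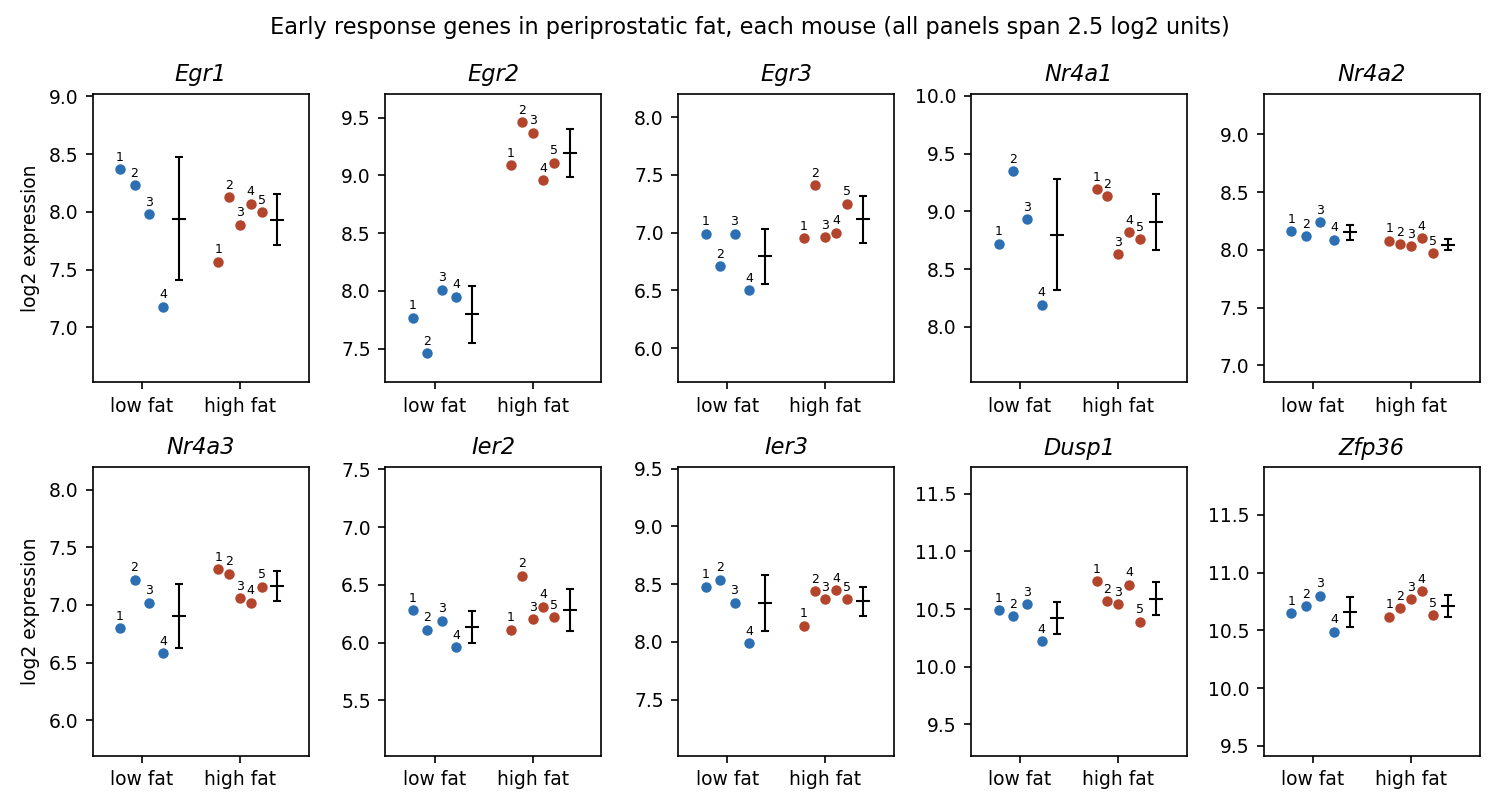
Log2 expression of each of the 10 genes (vertical axis, a range of equal width in every panel) in each low fat and high fat mouse (points, numbered by mouse), with the group mean and SD beside them (bars). The high fat values of Egr2, 8.96 to 9.46, lie above all low fat values, 7.46 to 8.01, and the groups overlap in the other 9 genes.

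In the Egr family, Egr2 was 2.64-fold higher in high fat diet. Its log2 values in high fat mice 1 to 5 were 9.09, 9.46, 9.37, 8.96 and 9.11, and those in low fat mice 1 to 4 were 7.77, 7.46, 8.01 and 7.95. The groups did not overlap, and the lowest high fat value lay 0.95 above the highest low fat value. Over all genes the groups did not overlap in 20.7%, and in 11.6% with the high fat mice above. The means were 9.20 ± 0.21 (SD, n = 5) and 7.80 ± 0.25 (SD, n = 4), with a log2 difference of 1.40 ± 0.13 (SE) and a limma adjusted p of 0.00012. The 95% interval of the fold ran from 2.16 to 3.23, and Egr2 held rank 106 among the differences of all genes from the highest down. It passed in all 18 alternatives, with differences from 1.29 to 1.47.

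The sequence upstream of the Egr2 start is shown because it is the member that rose, and those of Nr4a1, Nr4a3, Nr4a2 and Dusp1 because they share with it the motif CGTCA, a choice made after the motifs were searched. Sequence came from RefSeq's promoter table of the assembly GRCm38.p6, and 7 of the 10 members were searched. Egr1, Egr3 and Ier2 were not searched, so whether they hold the motifs was not determined. Each line gives the 250 bases before a start, 5′ to 3′ on the strand of the gene. Capitals mark the CArG box and, on either strand, CGTCA, the core of the cyclic AMP response element. The full element TGACGTCA holds overlapping cores on both strands. The window of Egr2 (chr10:67537619-67537868, plus strand) belongs to 1 of 5 starts listed, and the other windows are Nr4a1 (chr15:101266596-101266845, plus strand), Nr4a3 (chr4:48045055-48045304, plus strand), Nr4a2 (chr2:57124004-57124253, minus strand) and Dusp1 (chr17:26508473-26508722, minus strand).
Egr2: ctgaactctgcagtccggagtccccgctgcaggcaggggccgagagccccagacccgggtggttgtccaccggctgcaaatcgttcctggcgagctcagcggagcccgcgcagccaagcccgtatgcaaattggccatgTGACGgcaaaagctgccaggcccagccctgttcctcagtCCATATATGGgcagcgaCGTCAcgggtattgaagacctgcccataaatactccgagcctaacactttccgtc
Nr4a1: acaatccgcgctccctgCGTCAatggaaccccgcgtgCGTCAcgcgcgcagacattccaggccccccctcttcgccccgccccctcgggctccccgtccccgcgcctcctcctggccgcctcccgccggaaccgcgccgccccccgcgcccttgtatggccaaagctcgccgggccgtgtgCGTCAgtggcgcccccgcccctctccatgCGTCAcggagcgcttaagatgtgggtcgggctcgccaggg
Nr4a3: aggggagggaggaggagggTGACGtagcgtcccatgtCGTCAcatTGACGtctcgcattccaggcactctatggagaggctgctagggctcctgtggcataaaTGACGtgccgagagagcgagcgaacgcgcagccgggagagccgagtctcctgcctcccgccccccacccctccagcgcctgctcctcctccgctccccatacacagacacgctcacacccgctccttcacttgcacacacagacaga
Nr4a2: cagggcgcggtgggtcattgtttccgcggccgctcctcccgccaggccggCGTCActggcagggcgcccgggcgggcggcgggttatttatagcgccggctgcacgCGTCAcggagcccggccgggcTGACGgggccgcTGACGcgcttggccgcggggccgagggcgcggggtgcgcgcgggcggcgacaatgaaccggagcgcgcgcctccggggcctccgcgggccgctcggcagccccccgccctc
Dusp1: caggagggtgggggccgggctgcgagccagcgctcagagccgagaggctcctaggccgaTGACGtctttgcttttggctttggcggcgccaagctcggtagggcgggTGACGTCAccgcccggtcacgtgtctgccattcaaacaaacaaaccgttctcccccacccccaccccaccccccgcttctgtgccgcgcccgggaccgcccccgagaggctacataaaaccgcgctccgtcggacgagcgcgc

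In the window of Egr2 the CArG box CCATATATGG begins 72 bases before the start and CGTCA cores begin at 111 and 55 bases before it. A CArG box stood in 4 of the 5 Egr2 windows, 3 of which overlap and hold the same box, so that 2 boxes were distinct, and CGTCA stood in 3 of the 5. Counting a gene once if any of its windows holds a motif, a CArG box stood in 2 of 7 searched members, Egr2 and Zfp36 (CCATAAAAGG). Over the whole table it stood in 1.62% of 27025 genes and 1.47% of 32851 windows of the same length. CGTCA stood in 5 of 7 members (Egr2, Nr4a1, Nr4a2, Nr4a3 and Dusp1), against 19.8% of genes and 17.8% of windows. The full element TGACGTCA stood in 1 of 7, Dusp1, against 1.77% of genes. The sequence GCGNGGGCG, which Egr proteins bind, stood on either strand in Nr4a1, Nr4a2 and Zfp36, against 5.33% of genes, and TGANTCA, the AP-1 site, in 0 of 7, against 7.82%. A match describes letters in the window and was not linked to binding. CGTCA stood in Egr2 and also in Nr4a1, Nr4a2, Nr4a3 and Dusp1, which did not pass the test between diets. A link of any of these motifs with diet was not tested.

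Egr1, the most studied member of its family, had nearly the same mean in both diets. Its log2 values were 7.57, 8.13, 7.89, 8.07 and 8.0 in high fat mice 1 to 5 and 8.37, 8.23, 7.98 and 7.18 in low fat mice 1 to 4. Low fat mouse 4 was the lowest of all 9 mice and low fat mouse 1 the highest, so the high fat values lay inside the low fat range. The difference was -0.01 ± 0.22 (SE), with a 95% interval of -0.50 to 0.48 and a limma adjusted p of 0.983. The spread among low fat mice was 0.53 (SD, n = 4), and the interval leaves room for a fold of up to 1.4 higher. Without low fat mouse 4 the difference was -0.26, and without low fat mouse 1 it was 0.13, neither past the threshold.

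Egr3, which often follows the induction of its relatives, was at 6.95, 7.41, 6.96, 7.00 and 7.25 in high fat mice 1 to 5 and at 6.99, 6.71, 6.99 and 6.50 in low fat mice 1 to 4. The groups overlapped by 0.04, and 3 high fat mice lay above all low fat mice. The difference of 0.32 ± 0.13 (SE) had an unadjusted p of 0.0351 and did not pass over all genes (limma adjusted p = 0.119, range over alternatives 0.0766 to 0.277). Egr3 lay below the median of its array in 4 of 9 mice. Whether such values are above background was not determined.

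In the Nr4a family no gene passed the test. Nr4a1, which encodes the receptor Nur77, was at 9.19, 9.13, 8.63, 8.82 and 8.76 in high fat mice 1 to 5 and at 8.72, 9.35, 8.93 and 8.19 in low fat mice 1 to 4. Low fat mice 2 and 4 were the highest and the lowest of all mice, and the high fat values lay between them. The difference of 0.11 ± 0.21 (SE) had an adjusted p of 0.769 and a 95% interval of -0.36 to 0.58.

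Nr4a3, which encodes Nor1, was highest in the same mouse of each diet as Nr4a1, high fat mouse 1 and low fat mouse 2. It was at 7.31, 7.27, 7.06, 7.02 and 7.16 in high fat mice 1 to 5 and at 6.80, 7.22, 7.02 and 6.58 in low fat mice 1 to 4. The groups overlapped, since low fat mouse 2 lay above high fat mice 3, 4 and 5. The difference was 0.26 ± 0.12 (SE, limma adjusted p = 0.168, range over alternatives 0.0414 to 0.484). Without low fat mouse 2, the mouse with high smooth muscle markers, it was 0.36 and passed (adjusted p = 0.0414). It was 0.15 without low fat mouse 4 and 0.17 without high fat mice 1 and 2, and passed in neither case. The part of smooth muscle in the level of Nr4a3 was not tested.

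Nr4a2, which encodes Nurr1, had the smallest spread of the 10 genes and pointed down. It was at 8.08, 8.05, 8.03, 8.10 and 7.97 in high fat mice 1 to 5 and at 8.16, 8.12, 8.24 and 8.09 in low fat mice 1 to 4. High fat mice 1, 2, 3 and 5 lay below all low fat mice, and only high fat mouse 4 overlapped them. The difference of -0.10 ± 0.04 (SE) had a limma adjusted p of 0.132 (range over alternatives 0.0263 to 0.343). It was -0.15 and passed both after quantile normalization was repeated (adjusted p = 0.0263) and with arrays centred on their medians (adjusted p = 0.033). Every other member also moved down under both scalings, as Dusp1 did from 0.17 to 0.12 in each. The median difference of all genes moved by -0.008 with quantile normalization and by -0.044 with centring.

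Ier2, Ier3, Dusp1 and Zfp36 did not pass the test, and the means of the diets differed by at most 0.17. Dusp1 was at 10.74, 10.57, 10.54, 10.71 and 10.39 in high fat mice 1 to 5 and at 10.49, 10.44, 10.54 and 10.22 in low fat mice 1 to 4. High fat mice 1, 2 and 4 lay above all low fat mice, and high fat mice 3 and 5 overlapped them. The difference of Dusp1 was 0.17 ± 0.09 (SE, adjusted p = 0.217).

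Zfp36 was at 10.62, 10.69, 10.77, 10.84 and 10.63 in high fat mice 1 to 5 and at 10.65, 10.71, 10.80 and 10.49 in low fat mice 1 to 4. The groups overlapped over most of their range. The difference of Zfp36 was 0.05 ± 0.07 (SE), with a 95% interval of -0.11 to 0.20 and an adjusted p of 0.694, so a rise as large as that of Egr2 lies outside the interval. After quantile normalization was repeated the difference of Zfp36 was 0.00.

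Ier3, an early response gene that modulates cell survival, was at 8.14, 8.44, 8.37, 8.45 and 8.37 in high fat mice 1 to 5 and at 8.48, 8.54, 8.34 and 7.99 in low fat mice 1 to 4. Its difference was 0.02 ± 0.11 (SE, adjusted p = 0.946) and turned to -0.03 under both scalings. High fat mouse 1 and low fat mouse 4 were the lowest of their diets, as they were for Egr1.

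Ier2, which encodes a nuclear protein, was at 6.11, 6.58, 6.20, 6.31 and 6.22 in high fat mice 1 to 5 and at 6.28, 6.11, 6.19 and 5.96 in low fat mice 1 to 4. It lay below the array median in all 9 mice, and whether it was above background was not determined. The difference of Ier2 was 0.15 ± 0.10 (SE, adjusted p = 0.322).

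**Figure D2:**
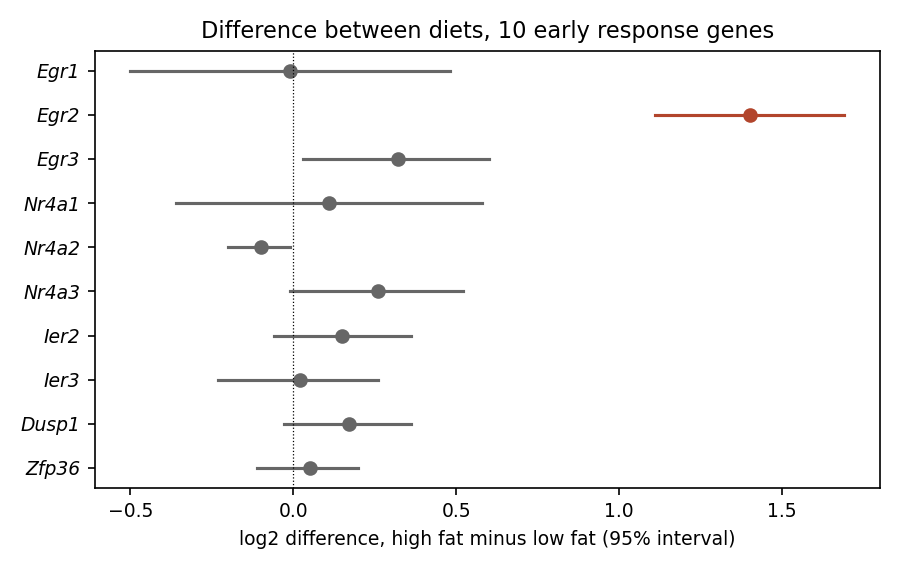
Log2 difference, high fat minus low fat, of each of the 10 genes (points) with its 95% interval from limma (lines), Egr2 in red as the gene with an adjusted p under 0.05. The interval of Egr2, 1.11 to 1.69, lies above those of the other 9 genes, whose highest bound is 0.60 for Egr3.

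The log2 ratio of Egr2 to each other member was taken within each mouse. Egr2 was singled out for this after its values were seen, so the ratios are a description, with no test. The ratio to Egr1 was 0.89 to 1.52 in high fat mice and -0.77 to 0.77 in low fat mice, a difference of 1.41. Over the 9 ratios the difference ran from 1.09 for Egr3 to 1.51 for Nr4a2, and the groups did not overlap in any of them. All 9 hold the same Egr2 values, which did not overlap between diets by themselves, so they are not separate observations.

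Apart from diet, 9 of the 10 members varied among mice of 1 diet by more than the median gene did, the exception being Nr4a2. The pooled SD within diets was 0.39 for Egr1 and 0.37 for Nr4a1, which put them at the 98.6 and 98.4 percentile of all genes, whose median SD was 0.10. Egr2 (0.22), Egr3 (0.22) and Nr4a3 (0.20) stood at the 93.5, 93.3 and 91.4 percentile, and Nr4a2 (0.06) at the 15.3 percentile. Low fat mouse 4 was the lowest low fat mouse in 9 of 10 members, Egr2 being the exception, whereas over all genes it was the lowest in 21.8%. Low fat mouse 3 lay above the low fat mean in all 10, by 0.01 to 0.21, and that mean includes the low values of low fat mouse 4. The share of all genes in which low fat mouse 3 did so was not determined. High fat mouse 1 was the lowest high fat mouse in 5 members (Egr1, Egr3, Ier2, Ier3 and Zfp36) and the highest in 3 (Nr4a1, Nr4a3 and Dusp1). Over all genes it was the lowest high fat mouse in 22.2% and the highest in 23.3%. Skeletal muscle markers were high in high fat mouse 1 and low fat mouse 4, and their part in the levels of the members was not tested.

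**Figure D3:**
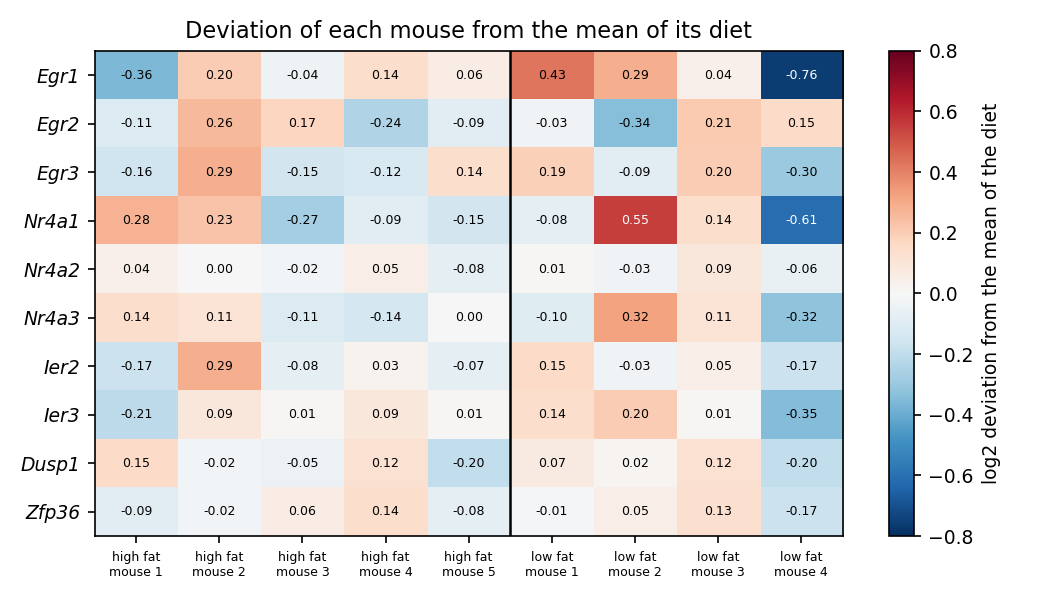
Log2 deviation of each mouse (columns) from the mean of its own diet for each of the 10 genes (rows), with the value in each cell, red above and blue below the mean. The column of low fat mouse 4 is below the mean in every gene but Egr2, with -0.76 for Egr1 and -0.61 for Nr4a1.

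Some members followed nearly the same order of mice within diets. As a measure of likeness, deviations from the diet means were correlated over the 9 mice, all of which share 1 array per point and the same normalization, and no test was made. Pearson's r was 0.98 for Egr1 with Ier3 (Spearman's rho 0.94), 0.96 for Nr4a1 with Nr4a3 (rho 0.90), 0.89 for Nr4a2 with Dusp1 (rho 0.87) and 0.83 for Egr3 with Ier2 (rho 0.90). Without the 2 mice farthest from the median of the first gene, r was 0.86, 0.87, 0.89 and 0.73 in that order. Over all 45 pairs of members r had a median of 0.36 and ran from -0.40 to 0.98. The lowest value was that of Egr2 with Nr4a1 and rested on low fat mouse 2, since r was 0.05 without it. Egr2 with Dusp1 then had -0.28.

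Across 10447 named genes at or above the median level, the gene most alike to Egr1 was Ier3, followed by Chpf and Lynx1 (r = 0.961 and 0.946). The closest to Nr4a1 were Spty2d1 (0.984), Rnf7 (0.971) and the member Nr4a3, and the closest to Nr4a3 was Nr4a1, followed by Spty2d1 and Lpar4. For Egr2 they were Smyd5 (0.957), Lrrc4b (0.938) and Eya3 (0.919), none of them a member. Those of Egr3 were Sytl2 (0.968), Gpatch11 and Morc3, those of Nr4a2 were Vps37b (0.968), Arhgef12 and Tbc1d10c, and those of Ier2 were Fbxw17 (0.970), Chm and Med24. Ier3 was followed most closely by Egr1, Zfp623 and Tcl1b1, Dusp1 by Ccnt2 (0.956), Ptp4a3 and Rexo1, and Zfp36 by Iffo1 (0.964), Abca3 and Tanc2. These are the highest of many values of r and carry no test.

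Of 17 close relatives of the members and partners of Egr proteins, 6 rose and 1 fell (41.2% called, median difference 0.21). Over all genes 21.5% were called. With genes below the median level left out, 4480 were called, against 4768 with them, so the share among brighter genes was higher than 21.5%. The same background holds for the lists and markers below, and no list was tested against it. Nab2, a corepressor of Egr proteins whose own gene Egr proteins induce, rose 1.71-fold, with 9.11 to 9.42 in high fat mice and 8.33 to 8.70 in low fat mice (difference 0.77 ± 0.09, SE, adjusted p = 0.00026). With the mean of its probe sets the difference of Nab2 was 0.48, which still passed. Dusp5, a nuclear phosphatase of extracellular signal-regulated kinases, rose 1.49-fold, Ier5l 1.24-fold and Dusp6, the cytoplasmic counterpart of Dusp5, 1.3-fold. Dusp4 fell by 0.55 on the log2 scale. Egr4, the fourth gene of the Egr family, was at 5.95 and 5.96 on average, with an adjusted p of 0.881. The count of called relatives was 4 without high fat mice 1 and 2 and 5 without low fat mouse 4. Dusp6 did not pass with the mean of its probe sets (0.17), without high fat mice 1 and 2 together (0.34), without high fat mouse 2 (0.34), without high fat mouse 3 (0.38) or without low fat mouse 3 (0.38). Dusp4 did not pass with the mouse number as a block (-0.47), without high fat mice 1 and 2 together (-0.56) or without any 1 of high fat mice 1, 2 and 5 and low fat mice 2 and 4 (-0.45 to -0.56).

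Among 38 measured genes of a list of other immediate early genes, 18 rose and 1 fell (50% called, median difference 0.23). The list was drawn up with earlier results on these samples known, so its direction is not independent evidence. Rgs1, a brake on G protein signalling in leukocytes, rose 5.62-fold, Atf3, a stress-induced repressor, 5.47-fold, Gadd45b, a stress sensor, 3.33-fold and Fos, a subunit of AP-1, 2.92-fold, with adjusted p from 6e-05 for Atf3 to 0.000538 for Gadd45b. Cited2, a coactivator-binding protein that limits hypoxia signalling, fell by 0.53 on the log2 scale. The calls for Rgs1, Atf3, Gadd45b, Fos and Cited2 held in all 18 alternatives, and without high fat mice 1 and 2 the list had 12 higher and 1 lower. Fos, at 7.78 to 8.61 in high fat mice and 6.42 to 6.79 in low fat mice, did not overlap between diets, whereas Egr1 overlapped over its whole high fat range.

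Of 18 measured kinases and factors of the cascade upstream, 3 rose and 3 fell (33.3% called, median difference -0.01). Mapkapk2, a kinase that inactivates the Zfp36 protein, rose 1.3-fold (adjusted p = 0.000121) and Mrtfa, a coactivator of serum response factor, 1.27-fold. Elk1, a partner of serum response factor, fell by 0.32 on the log2 scale. Elk3 (0.17), Mapk9 (-0.24) and Crtc2 (-0.20) were the other called genes. Srf itself differed by 0.02 ± 0.06 (SE). Mrtfa and Crtc2 did not pass without high fat mice 1 and 2 (0.33 and -0.18), and Crtc2 also not without low fat mouse 2 or 3 (-0.17 in each). Mapk9 did not pass without low fat mouse 4 (-0.22). Elk3 did not pass with arrays centred on their medians (0.13), without high fat mice 1 and 2 together (0.13) or without any 1 of high fat mice 1, 2 and 3 and low fat mice 1, 2 and 4 (0.15 to 0.18).

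Cytokine transcripts that the Zfp36 protein is known to bind rose in 4 of 10 genes, and none fell (40% called, median difference 0.32). Ccl2, a chemokine for monocytes, rose 6.11-fold, Ccl3 4.39-fold, Tnf 1.78-fold and Cxcl2, a chemokine for neutrophils, 1.49-fold, with adjusted p from 0.000184 to 0.00514. These 4 genes passed in all 18 alternatives. The transcript of Zfp36 itself had a difference of 0.05, as given above.

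Dusp1, Zfp36 and Per1 are also known to respond to glucocorticoids, and of 12 genes on a list of glucocorticoid-induced genes 4 rose and 2 fell (50% called, median difference 0.07). Sgk1, a kinase that also responds to insulin and osmotic stress, rose 1.61-fold, Mt2 1.53-fold, Mt1 1.16-fold and Lcn2 1.41-fold. On the log2 scale Zbtb16 fell by 0.76 and Klf9 by 0.31. Fkbp5 (0.05), Tsc22d3 (0.08) and Per1 (0.03) did not pass (adjusted p = 0.866, 0.343 and 0.927). With either scaling 2 rose and 2 fell, since Mt1 (0.16 and 0.17) and Lcn2 (0.45 in each) no longer passed. Mt1 also did not pass with the mouse number as a block (0.20). Lcn2 also did not pass with all rows of the table tested (0.50), without high fat mice 1 and 2 (0.58), or without any 1 of high fat mice 2 and 3 and low fat mice 1, 2, 3 and 4 (0.43 to 0.54).

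**Figure D4:**
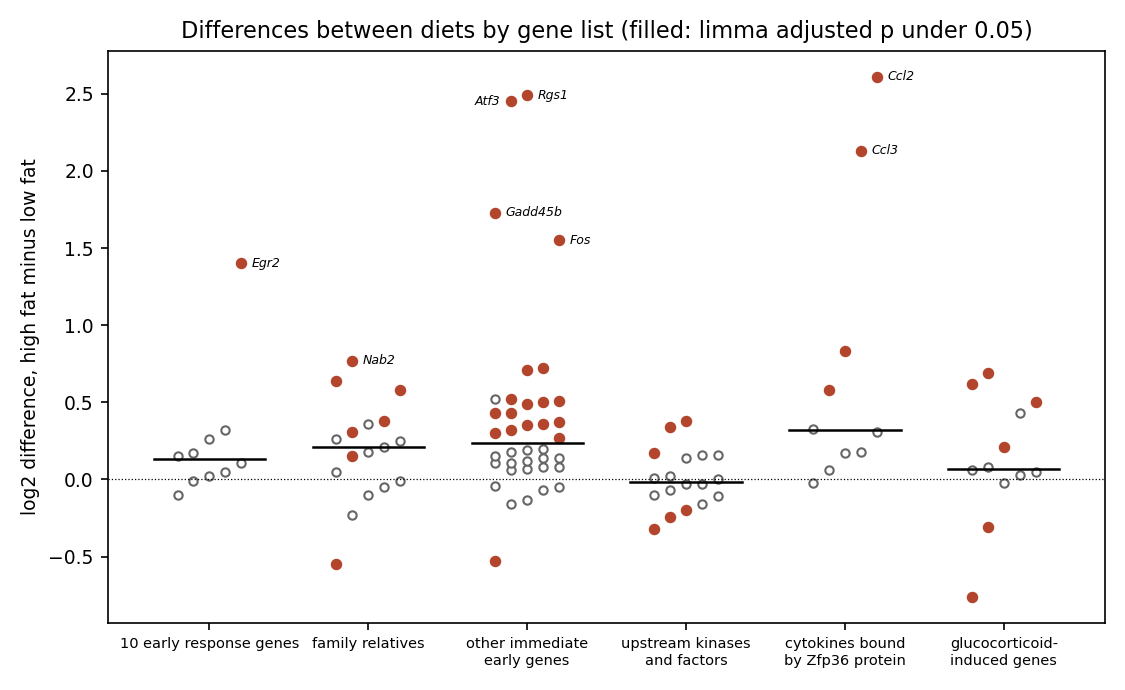
Log2 difference, high fat minus low fat (vertical axis), of each measured gene in the set of 10 and in 5 related lists (horizontal axis), filled where limma's adjusted p was under 0.05, with the median of each list as a line. Egr2 stands apart from the other members at 1.40, and Ccl2, Rgs1, Atf3, Ccl3, Gadd45b and Fos lie higher still.

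Markers of some cell types also differed between diets, in either direction. Macrophage markers rose in 14 of 14 genes, and in 11 of 14 without low fat mouse 2, without low fat mouse 4 or without high fat mice 1 and 2. Progenitor and fibroblast markers rose in 6 of 9, with a list mean of 10.53 to 10.92 in high fat mice and 9.79 to 10.14 in low fat mice, and adipocyte markers fell in 7 of 9 and rose in 1, Lep. The means of the macrophage, progenitor and adipocyte lists did not overlap between diets, and their part in the level of Egr2 was not tested. Endothelial markers rose in 1 of 10 and fell in 2, smooth muscle markers rose in 1 of 8, T and NK cell markers rose in 1 of 8 and fell in 1, B and plasma cell markers fell in 2 of 7 and neutrophil markers rose in 1 of 8 and fell in 2. Some of these counts rested on single mice. Without low fat mouse 2, 3 smooth muscle, 4 B and plasma cell, 1 endothelial and 1 T and NK cell markers were called. Without low fat mouse 4, 1 endothelial marker was called, and without high fat mice 1 and 2, 1 T and NK cell marker was called and the smooth muscle marker no longer passed. Under either scaling 4 B and plasma cell markers were called. No marker of the skeletal muscle, mast cell, mesothelial or prostate lists passed limma's test, and at an unadjusted p under 0.05 it was 0 in each of them as well. Among the high fat mice, mice 2 and 3 had the highest and mouse 4 the lowest values of both Egr2 and the macrophage mean. The mast cell mean shared this, with 7.94 and 7.83 in high fat mice 2 and 3 and 7.44 in high fat mouse 4. Among the low fat mice, the macrophage mean was highest in mouse 1, at 10.00, and Egr2 in mouse 3. The macrophage mean was lowest in low fat mouse 4, at 9.50, where Egr2 was at 7.95. Low fat mouse 2 had the lowest values of its diet for Egr2 (7.46), the mast cell mean (7.24) and the B and plasma cell mean (8.63). The cause of these orders was not tested.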

How the data were processed

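Periprostatic fat RNA of 9 mice was measured on 1 array per mouse, and the labels' titles gave the diet groups. Values are log2 expression per probe set as deposited. The submitters' processing notes name RMA, limma and R 3.5.0, without saying what each did. The sources used here do not give the program that ran RMA, its annotation or any row filter. The file holds 33793 rows, of which 23521 list exactly 1 gene symbol, and the probe set with the highest mean per symbol was kept, which left 22180 genes. Symbols were checked through Entrez identifiers against RefSeq's table of GRCm38.p6 (23328 matched, 0 changed), used for names, and its promoter table for sequence.

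Diet was tested with limma 3.58.1 (lmFit, eBayes) in R 4.3.3 on 5 against 4 mice without covariates, and p-values were Benjamini-Hochberg adjusted over all genes. Differences are high fat minus low fat. The fit was tested on simulated data. The number of arrays limits the precision, and no detection calls were used. Alternatives covered scaling, a filter on dim genes, probe set choice, array weights, the variance model, a block for mouse number, all rows, thresholds and leaving out mice. From each related list, up to 4 genes per direction with the smallest p were named. For each member, the 3 genes with the highest correlation of deviations from the diet means were named. The members and lists were chosen with earlier results of these data known. Some genes of the related lists and some markers are not reported here.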

Additional observations from a re-analysis of the deposited data

Results flagged for a closer look

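Ier3 in high fat mouse 1 was at 8.14 on the log2 scale, apart from the other high fat mice at 8.37 to 8.45. The gap took 0.741 of the range of the group, above the Dixon limit of 0.71 for 5 samples. It was the 1 such value among 20 groups of mice and genes checked, and chance gives about 1 in 20.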

How the results depend on the processing

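The count of members called was 1 in 17 of 20 alternatives. It was 2 after quantile normalization was repeated and 2 with arrays centred on their medians, where Nr4a2 (-0.15 in each) joined Egr2, and it ranged from 1 to 2 when each mouse was left out, with Nr4a3 joining without low fat mouse 2. Over all genes 4768 were called, 1566 at a log2 difference of at least 0.5, and 3759 to 4364 when each mouse was left out. Differences near 0 changed sign. With quantile normalization repeated Ier3 was at -0.03 and Zfp36 at 0.00, and with arrays centred Ier3 was at -0.03. With array weights Egr1 was at 0.06, and without high fat mice 1 and 2 Egr1 was at 0.04 and Nr4a1 at -0.06. Leaving out each mouse, Egr1 ran from -0.26 to 0.13, Nr4a1 from -0.09 to 0.29, Ier3 from -0.10 to 0.08 and Zfp36 from -0.01 to 0.09. The cause of these sign changes was not tested. Ier2, as a dim gene, had no value with dim genes left out. With the mouse number as a replicate block 4036 genes and 1 member were called. Deviations of mice with the same number correlated at 0.05 to 0.13 across genes, and 3 of 8 mice correlated best with their own number. These values neither show nor exclude a pairing of mice by number. Of 28 other named genes, 20 kept their call and 8 lost it in some alternative, as given beside them, and 0 changed sign; these checks, and those of list counts, were chosen after seeing the data. Background level was not determined, which limits Ier2, Egr3 and Nr4a3 most.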
